A study of Mus musculus with 2 samples.

Results

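The enzymes of amino acid catabolism comprised 48 named genes of tyrosine, methionine and sulphur, tryptophan, lysine, proline, glycine, serine, branched-chain and histidine breakdown, of transamination and of the urea cycle. They were chosen by symbol and by no cutoff on a measured value, but with earlier results of these data known. Each of the 48 was found as a single entry among the 38279 genes of the files. RNA-seq was performed on the cells of injured mouse liver that had adhered to plastic within 2 h, a fraction labelled stromal and intended to hold stellate cells and myofibroblasts. Adult male C57/Bl6 mice of both genotypes received carbon tetrachloride (CCl4), a hepatotoxin that causes fibrosis, for 5 weeks. The Foxf1 fl/fl library came from mice with loxP sites around the first exon of both Foxf1 alleles and no recombinase. The αSMACreER;Foxf1 fl/fl library came from mice that also carried a tamoxifen-inducible Cre driven by the promoter of smooth muscle actin, so that deletion was directed at αSMA-positive cells. Tamoxifen was injected in repeated courses during the injury to activate the Cre. Samples were pooled within each genotype, and 1 library per genotype was sequenced. There was therefore no replicate, no test and no p-value for any difference given here, and all comparisons are between these libraries. Foxf1 itself was not analysed here.

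The liver is the main site at which amino acids are stripped of nitrogen and their carbon skeletons are sent to glucose, ketone bodies or the citric acid cycle. Hepatocytes hold most of these pathways, and a number of the enzymes, such as those of phenylalanine and tyrosine breakdown, are made chiefly in liver and kidney. Others, such as the aspartate aminotransferases and the branched-chain enzymes, act in most tissues. Ammonia released on the way is made into urea in hepatocytes near the portal vein or is joined to glutamate to make glutamine.

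Levels are given as deposited, in FPKM, a fragment count divided by transcript length and by the depth of the library. The log2 fold change of αSMACreER;Foxf1 fl/fl over Foxf1 fl/fl was taken on log2(FPKM + 0.1) after the αSMACreER;Foxf1 fl/fl values were divided by 1.018, the median ratio between the libraries over the 12011 genes that reached an FPKM of 1 in each. The pseudocount makes the change of low genes look smaller. Brackets hold an approximate 95% counting interval, calculated from reads estimated as 9760000 mapped reads in the Foxf1 fl/fl library and 11330000 in the αSMACreER;Foxf1 fl/fl library. These depths are rough, because only 51.5% and 53.4% of the low values used lay within 0.1 of a whole read. Reads of a gene were estimated on its longest annotated transcript. Where shorter transcripts prevail, the reads are fewer and the intervals are wider than given. The intervals are for counting error only and hold no error between animals. They take reads as independent. Reads amplified without molecular identifiers are not independent molecules, so the intervals may be too narrow even for counting error. A gene was called lower or higher when it differed at least 1.5-fold. All 48 enzymes passed the filter of a mean FPKM of at least 1, as did 12839 genes in all.

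Of the 48 enzymes, 38 were at least 1.5-fold lower in the αSMACreER;Foxf1 fl/fl library, where 13.2% of all genes tested were. None of the 48 was at least 1.5-fold higher, against 12.9% of all genes, and 10 lay within 1.5-fold. The median log2 fold change of the enzymes was -1.10, with a range from -2.63 for Cbs to 0.13 for Mccc1, and the median of all genes tested was 0.0057. At least 2-fold lower were 28 enzymes, against 6.22% of all genes, and 47 lay below 0 by any amount, against 49.6%. The counting interval lay below 0 for 42 enzymes, against 28.4% of all genes, and spanned 0 for Kmo, Ddc, Aass, Agxt2, Mccc1 and Mccc2. It lay wholly beyond 1.5-fold on the lower side for 29 enzymes, against 5.15% of all genes, and 9 of those called lower had an interval that reached inside 1.5-fold.

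In absolute terms the 48 enzymes summed to 1077 FPKM in the Foxf1 fl/fl library and 543 FPKM in the αSMACreER;Foxf1 fl/fl library. After scaling the sum was 2.02-fold lower, and as a share of all FPKM it went from 0.143% to 0.0815%. At least 10 FPKM were reached by 24 enzymes in the Foxf1 fl/fl library and by 15 in the αSMACreER;Foxf1 fl/fl library. Estimated reads per enzyme ran from 35 to 2884 with a median of 275 in the Foxf1 fl/fl library, and from 22 to 2654 with a median of 159 in the other. The plot of both levels for every enzyme shows the libraries far apart for most enzymes and nearly level for Aass, Ddc, Kmo and Mccc1.

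**Figure D1:**
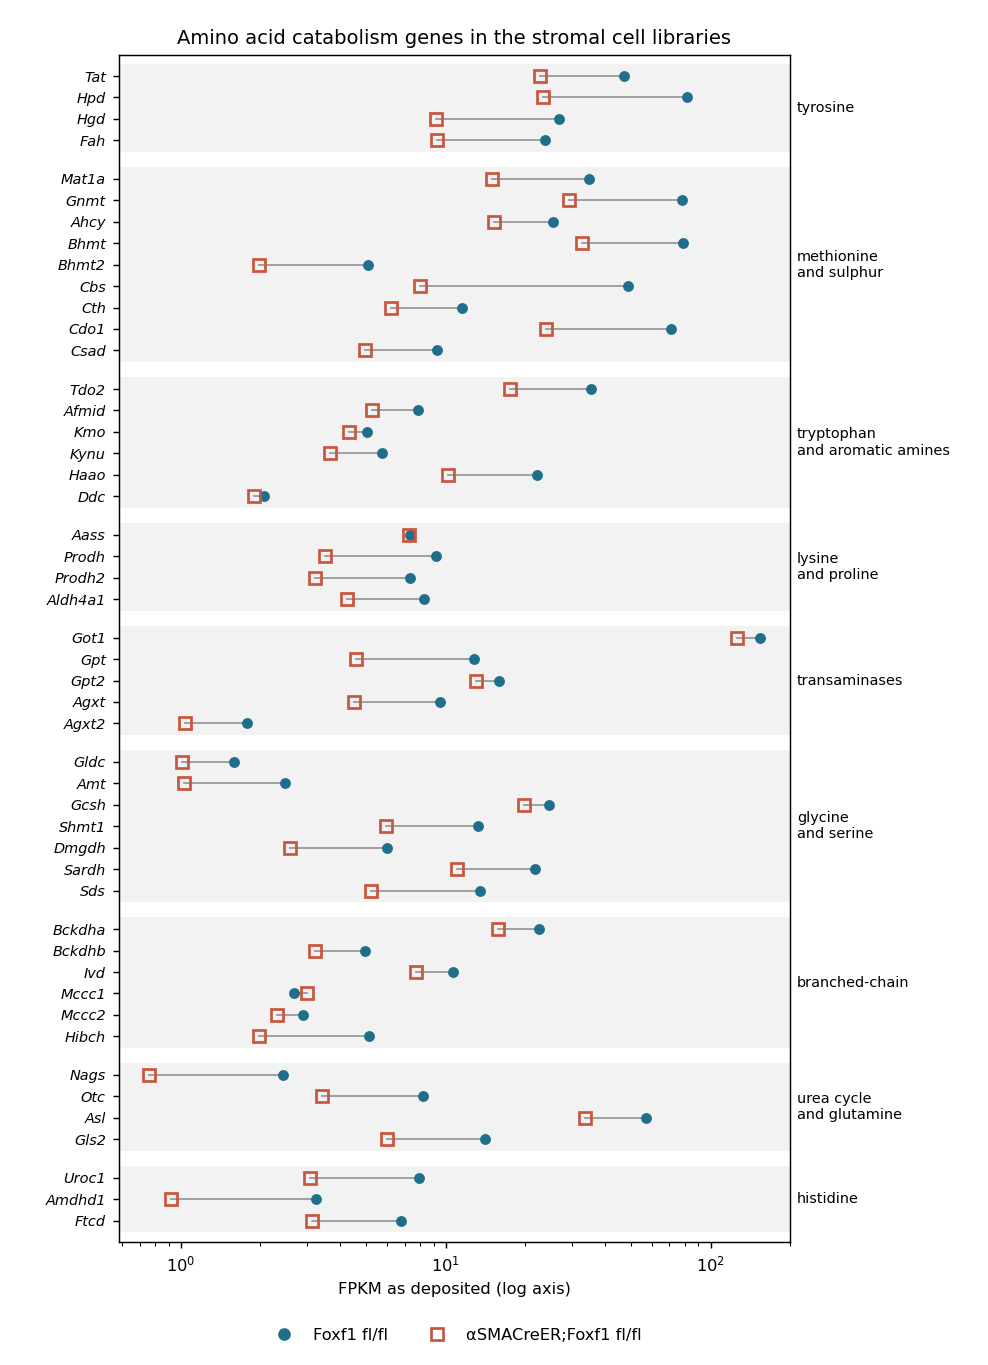
FPKM of each of the 48 enzymes on a log axis, as deposited, with a filled circle for the Foxf1 fl/fl library and an open square for the αSMACreER;Foxf1 fl/fl library (1 pooled library each), grouped by pathway. Got1 was the highest in both libraries, at 154 and 126 FPKM, and the squares lie left of the circles for all enzymes but Mccc1.

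Secreted proteins of the hepatocyte were measured beside the enzymes, because hepatocytes are a known source of both. All 24 of 24 such genes were at least 1.5-fold lower, with a median log2 fold change of -1.56 and a range from -1.92 to -0.68. Their summed level was 7382 FPKM in the Foxf1 fl/fl library and 2865 FPKM in the αSMACreER;Foxf1 fl/fl library, a share of 0.979% and 0.430% of all FPKM, and none was at 0 in either library. Albumin (Alb) stood at 2292 and 912 FPKM, transthyretin (Ttr) at 322 and 86.8 FPKM, and apolipoprotein A1 (Apoa1) at 261 and 84.2 FPKM. The log2 fold changes of Alb, Ttr and Apoa1 were -1.35, -1.92 and -1.66. With the trend of fold change with transcript length removed, they were nearer 0, at -1.14, -1.57 and -1.31. Of the 48 enzymes, 33 had a fold change within the range of these secreted proteins, 14 lay above it and 1, Cbs, lay below it. The end of that range nearest 0 was set by transferrin (Trf) alone, at -0.68. The next secreted protein was Itih1, at -1.22, and both are named after their values were seen. The median of the enzymes, -1.10, lay between Trf and Itih1, so the count of 33 depends on Trf. In bulk RNA, fewer hepatocytes and less of each RNA per hepatocyte cannot be told apart, and the part of hepatocyte content in the enzymes' difference was not tested.

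The other cell types moved less. Macrophage and Kupffer cell markers summed to 15274 and 12931 FPKM, with 2 of 16 lower, a median of -0.33, and Clec4f at 1117 and 753 FPKM. Endothelial markers summed to 813 and 821 FPKM with none of 8 past 1.5-fold, a median of 0.18, and Pecam1 at 93.3 and 96.6 FPKM. Cholangiocyte markers summed to 553 and 655 FPKM with none of 5 past 1.5-fold, a median of 0.27, and Krt19 at 39.7 and 29.5 FPKM. Of the markers of stellate cells and myofibroblasts, the labelled target of the preparation, 13 were listed and 8 passed the filter. The 13 summed to 227 and 322 FPKM, the median of the 8 was 0.47, and 1, desmin (Des), was higher, at 1.70 and 3.29 FPKM. Others of the list, named after their values were seen, went both ways. Dcn, at 127 and 186 FPKM, and Col1a1, at 70.2 and 103 FPKM, made up most of the sum. The contractile genes lay below 0, with Acta2 at 7.77 and 5.65 FPKM, -0.48 [-0.83, -0.12], and Tagln at 5.51 and 4.31 FPKM, -0.37 [-0.84, 0.10]. No marker in these lists was at 0, and macrophage markers had the greatest sum in both libraries. The marker values also depended on transcript length. The log2 fold changes of Clec4f, Pecam1, Krt19 and Des were -0.59, 0.025, -0.45 and 0.89. With the length trend removed, they were -0.50, -0.0076, -0.15 and 0.91. Col1a1 and Dcn, each at 0.53, then stood at 0.19 and 0.33. The part of these cell types in the enzymes' difference was not tested.

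Tyrosine is broken down in order by Tat, Hpd, Hgd and Fah, and each of these 4 enzymes was lower, with a median log2 fold change of -1.46 and a sum of 179 and 64.6 FPKM. Tat, the aminotransferase that starts the pathway, stood at 47.1 FPKM in the Foxf1 fl/fl library and 22.7 FPKM in the αSMACreER;Foxf1 fl/fl library, a log2 fold change of -1.08 [-1.23, -0.93]. Hpd (ENSMUSG00000029445, mm10 chr5:123171807-123182727), the dioxygenase that makes homogentisate, was at 81.8 and 23.4 FPKM, -1.83 [-2.01, -1.65]. Hgd, which opens the ring of homogentisate, was at 26.7 and 9.24 FPKM, -1.55 [-1.81, -1.28]. Fah, the last step, which yields fumarate and acetoacetate, was at 23.7 and 9.25 FPKM, -1.37 [-1.65, -1.09]. Hpd was the highest of the 4 in the Foxf1 fl/fl library, and in the αSMACreER;Foxf1 fl/fl library Hpd and Tat were nearly level. Hpd lies across the gene Psmd9 on the opposite strand, at 9.40 and 7.82 FPKM, and the sources used here do not state whether counting used strand.

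Methionine and sulphur metabolism was the group with the greatest summed difference, from 362 to 137 FPKM, and 9 of its 9 enzymes were lower, with a median of -1.29. Methionine is activated to S-adenosylmethionine by Mat1a, at 34.8 and 15.02 FPKM, -1.23 [-1.38, -1.09]. Gnmt, which uses that methyl group to methylate glycine, was at 77.9 and 29.3 FPKM, -1.43 [-1.64, -1.23]. Ahcy, which splits S-adenosylhomocysteine and is used by all methylating cells, was at 25.3 and 15.2 FPKM, -0.76 [-0.94, -0.57], the smallest difference of this group. Homocysteine can be methylated again with betaine by Bhmt, at 78.5 and 32.6 FPKM, -1.29 [-1.38, -1.20]. Its paralog Bhmt2, which uses S-methylmethionine, was far lower in level, at 5.10 and 1.98 FPKM, -1.35 [-1.83, -0.87].

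Homocysteine is otherwise sent to cysteine, and the gene of that committed step, Cbs (ENSMUSG00000024039, mm10 chr17:31608894-31637238), had the largest difference of the 48. Cbs, cystathionine beta-synthase, was at 48.9 FPKM in the Foxf1 fl/fl library and 7.97 FPKM in the αSMACreER;Foxf1 fl/fl library, 6.18-fold lower after scaling, -2.63 [-2.76, -2.50]. About 2877 and 544 reads were estimated behind these levels, taken over the longest Cbs transcript of 6226 bases. The median Cbs transcript has 1168.5 bases, which would give fewer reads. Of the 12839 genes tested, 121 had a fold change as low or lower. The next enzyme in order of size was Hpd, whose interval did not overlap that of Cbs. Cth, which cleaves cystathionine to cysteine, was at 11.5 and 6.21 FPKM, -0.91 [-1.25, -0.57]. Cysteine is oxidised by Cdo1, at 70.8 and 23.9 FPKM, -1.59 [-1.76, -1.42]. Csad, the decarboxylase that follows on the way to taurine, was at 9.30 and 4.97 FPKM, -0.92 [-1.25, -0.58]. Cbs and Cth, which work in succession, thus differed by unlike amounts, while the intervals of Cth and Csad overlapped nearly entirely.

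**Figure D2:**
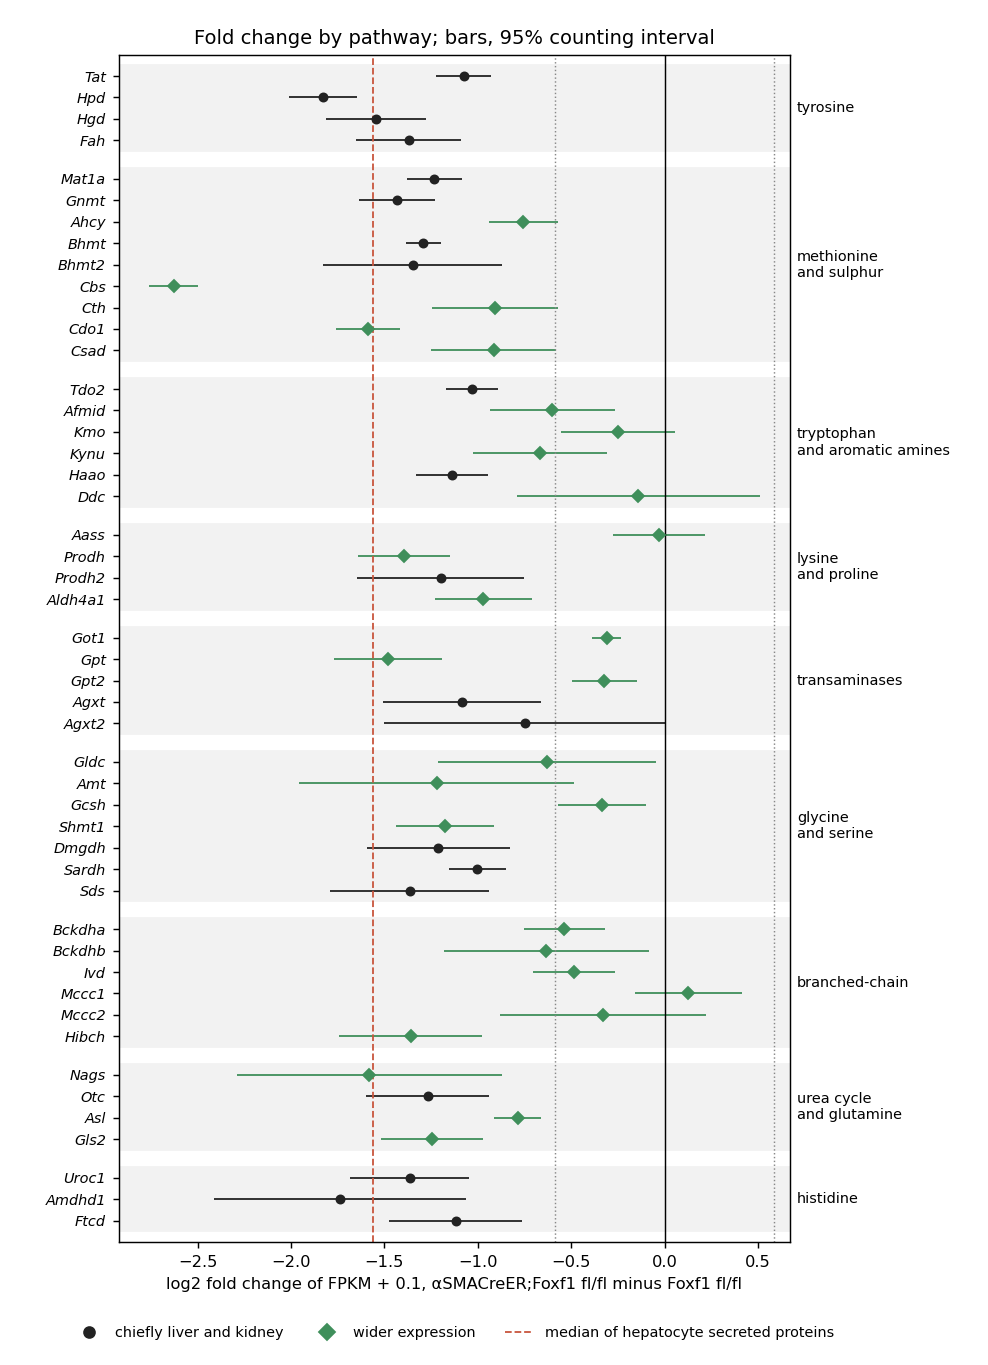
Log2 fold change of αSMACreER;Foxf1 fl/fl over Foxf1 fl/fl for each of the 48 enzymes, grouped by pathway, with bars for the approximate 95% counting interval (counting error only, 1 library per genotype), circles for liver and kidney enzymes, diamonds for wider ones, dotted lines at 1.5-fold and a dashed line at the median of the hepatocyte secreted proteins. Values run from -2.63 for Cbs to 0.13 for Mccc1, and 38 points lie beyond the 1.5-fold line on the lower side.

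Tryptophan enters the kynurenine pathway in liver through Tdo2, and along this pathway the differences were uneven, with 4 of 6 enzymes of the group lower and a median of -0.63. Tdo2, the dioxygenase, was at 35.3 and 17.5 FPKM, -1.03 [-1.17, -0.89]. Afmid, which releases formate to give kynurenine, was at 7.89 and 5.26 FPKM, -0.60 [-0.94, -0.27], near the threshold. Kmo, the monooxygenase that adds a hydroxyl group to kynurenine and is also found in macrophages and microglia, was at 5.06 and 4.31 FPKM, -0.25 [-0.56, 0.055]. Kmo overlaps Fh1 on the opposite strand over 5255 bases, and Fh1 was at 34.7 and 17.6 FPKM, so that reads of the pair may be mixed. Kynu, which cleaves the side chain, was at 5.77 and 3.66 FPKM, -0.67 [-1.03, -0.31]. Haao, which makes the precursor of quinolinate, was at 22.1 and 10.2 FPKM, -1.14 [-1.33, -0.95]. Ddc, the decarboxylase that makes aromatic amines, was at 2.06 and 1.89 FPKM, -0.14 [-0.79, 0.51], on only 37 and 39 estimated reads. The first and the last of the kynurenine enzymes, Tdo2 and Haao, were at least 2-fold lower, and the interval of Kmo between them overlapped neither. This rests on reads placed on the longest transcripts, of 3672 bases for Kmo and 3118 for Haao. Their median transcripts have 1564 and 750.5 bases, on which the intervals are wider and the separation of Kmo from Haao is not secure.

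Of the 4 enzymes of lysine and proline breakdown 3 were lower, with a median of -1.08. Aass (ENSMUSG00000029695, mm10 chr6:23072173-23132986), the bifunctional mitochondrial enzyme that starts lysine breakdown, was at 7.33 and 7.30 FPKM, -0.030 [-0.27, 0.21], on about 250 and 290 reads. The 3 lower ones act on proline and hydroxyproline. Prodh, proline dehydrogenase, was at 9.22 and 3.50 FPKM, -1.40 [-1.64, -1.15], and overlaps Dgcr6 on the opposite strand, at 11.3 and 7.97 FPKM. Prodh2, the hydroxyproline dehydrogenase, was at 7.35 and 3.20 FPKM, -1.20 [-1.65, -0.75]. Aldh4a1, the dehydrogenase that both routes share, was at 8.29 and 4.26 FPKM, -0.97 [-1.23, -0.71].

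Among the transaminases 3 of 5 were lower, with a median of -0.75, and the sum of 194 and 149 FPKM was made up mostly of Got1. Got1 (ENSMUSG00000025190, mm10 chr19:43499752-43524605), the cytosolic aspartate aminotransferase, was at 154 and 126 FPKM, -0.31 [-0.39, -0.23]. Gpt, the cytosolic alanine aminotransferase, was at 12.8 and 4.60 FPKM, -1.48 [-1.77, -1.19]. Gpt2, its mitochondrial counterpart, was at 16.0 and 13.0 FPKM, -0.32 [-0.50, -0.15]. Agxt, the glyoxylate aminotransferase of liver peroxisomes, was at 9.52 and 4.52 FPKM, -1.08 [-1.51, -0.66]. Agxt2, a mitochondrial aminotransferase of liver and kidney, was at 1.78 and 1.04 FPKM, -0.75 [-1.4998, 0.0094], on 35 and 24 estimated reads. Got1 had a narrow counting interval and differed little. It moved beyond that interval, to -0.098 with the trend of fold change with transcript length removed and to -0.11 with an equal FPKM sum. The interval of Agxt2 reached 0, and its call, like every call here, rested on the point value.

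Glycine and serine metabolism had 6 of 7 enzymes lower, a median of -1.18 and a sum of 83.0 and 46.5 FPKM. The glycine cleavage system, a mitochondrial complex, was represented by 3 of its subunits. Gldc, the decarboxylase, was at 1.59 and 1.009 FPKM, -0.63 [-1.21, -0.047]. Amt, the aminomethyltransferase, was at 2.48 and 1.03 FPKM, -1.22 [-1.96, -0.49], on 46 and 22 reads. Gcsh, the lipoylated carrier protein, was at 24.5 and 19.7 FPKM, -0.34 [-0.57, -0.099], and was the only enzyme of the group within 1.5-fold.

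One-carbon units also leave serine and methylated glycines. Shmt1, the cytosolic serine hydroxymethyltransferase, was at 13.3 and 5.93 FPKM, -1.18 [-1.44, -0.91]. Dmgdh and Sardh act in turn on dimethylglycine and sarcosine, and stood at 6.02 and 2.59 FPKM, -1.21 [-1.59, -0.83], and at 21.7 and 10.997 FPKM, -1.002 [-1.16, -0.85]. Sardh overlaps the antisense gene Sardhos over 45329 bases, and that gene was at 27.2 and 17.2 FPKM, so the level of Sardh is uncertain. Sds, serine dehydratase, which makes pyruvate for gluconeogenesis, was at 13.4 and 5.25 FPKM, -1.37 [-1.79, -0.94].

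The branched-chain group had the fewest calls for its size, with 2 of 6 enzymes lower, a median of -0.51 and a sum of 48.9 and 34.1 FPKM. Bckdha, the E1 alpha subunit of the branched-chain keto acid dehydrogenase, was at 22.6 and 15.8 FPKM, -0.54 [-0.75, -0.32], and its partner Bckdhb was at 4.95 and 3.21 FPKM, -0.63 [-1.18, -0.084]. These values fall on either side of the 1.5-fold threshold with overlapping intervals. Ivd, the isovaleryl-CoA dehydrogenase of leucine breakdown, was at 10.7 and 7.74 FPKM, -0.49 [-0.71, -0.27]. The subunits of methylcrotonyl-CoA carboxylase, the next step for leucine, were low in both libraries. Mccc1 (ENSMUSG00000027709, mm10 chr3:35959312-36000678) was at 2.69 and 2.996 FPKM, 0.13 [-0.16, 0.42], and Mccc2 was at 2.89 and 2.32 FPKM, -0.33 [-0.88, 0.22]. The direction of Mccc1 was lost when the trend of fold change with transcript length was removed, which gave -0.24. Hibch, a hydrolase of valine breakdown, stood apart from the leucine enzymes, at 5.12 and 1.97 FPKM, -1.36 [-1.74, -0.98].

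All 4 enzymes of the urea cycle and glutamine group were lower, with a median of -1.26. Nags, which makes the activator of the cycle's first enzyme, was at 2.43 and 0.759 FPKM, -1.58 [-2.29, -0.87], on 60 and 22 reads. Otc (ENSMUSG00000031173, mm10 chrX:10252305-10321024), which makes citrulline in mitochondria, was at 8.25 and 3.42 FPKM, -1.27 [-1.60, -0.94]. Asl, which splits argininosuccinate in the cytosol, was at 56.9 and 33.5 FPKM, -0.79 [-0.91, -0.66]. Gls2, the liver-type glutaminase, was at 14.1 and 5.995 FPKM, -1.24 [-1.52, -0.97]. The 3 histidine enzymes were lower by similar amounts, with a median of -1.37. Uroc1, urocanase, was at 7.94 and 3.08 FPKM, -1.37 [-1.68, -1.05]. Amdhd1, which follows it, was at 3.25 and 0.921 FPKM, -1.74 [-2.42, -1.06], on 71 and 23 reads. Ftcd, which passes the formimino group to folate, was at 6.81 and 3.14 FPKM, -1.12 [-1.48, -0.76].

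The enzymes were then divided by where, from general knowledge, their genes are expressed. This division, and that by compartment below, were made with earlier results of these data known. The counts are therefore descriptions and not independent of the values. Placement was not always clear, as Gls2, the liver-type glutaminase, was put among the wider enzymes. Of 20 enzymes made chiefly in liver and kidney, all 20 were lower, 19 of them at least 2-fold, with a median of -1.25 and a range from -1.83 to -0.75. Of 28 enzymes expressed more widely, 18 were lower, 9 of them at least 2-fold, with a median of -0.71 and a range from -2.63 to 0.13. The liver and kidney enzymes summed to 519 and 209 FPKM, and the wider ones to 558 and 334 FPKM. All 10 enzymes within 1.5-fold were wider ones. Agxt2, the liver and kidney enzyme nearest 0, came within 1.5-fold with a pseudocount of 1 (-0.46) and with an equal FPKM sum (-0.56). The groups were not separate, since 13 of the 28 wider enzymes lay within the range of the liver and kidney enzymes, 14 lay above it and Cbs lay below it.

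Of the 21 mitochondrial enzymes 13 were lower, with a median of -0.75, and of the 27 others 25 were lower, with a median of -1.18. Compartment and breadth were entangled, as 16 of the mitochondrial enzymes were wider ones. Among the liver and kidney enzymes, the 5 mitochondrial ones had a median of -1.20 and the 15 others -1.35, with all lower. Among the wider enzymes, 8 of 16 mitochondrial ones were lower with a median of -0.58, and 10 of 12 others with a median of -0.85. The medians of the mitochondrial enzymes were nearer 0 in both classes. For the liver and kidney enzymes this order did not hold with the trend of fold change with transcript length removed. The middle value was then -1.19 (Dmgdh) among the mitochondrial ones and -1.14 (Haao) among the others.

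**Figure D3:**
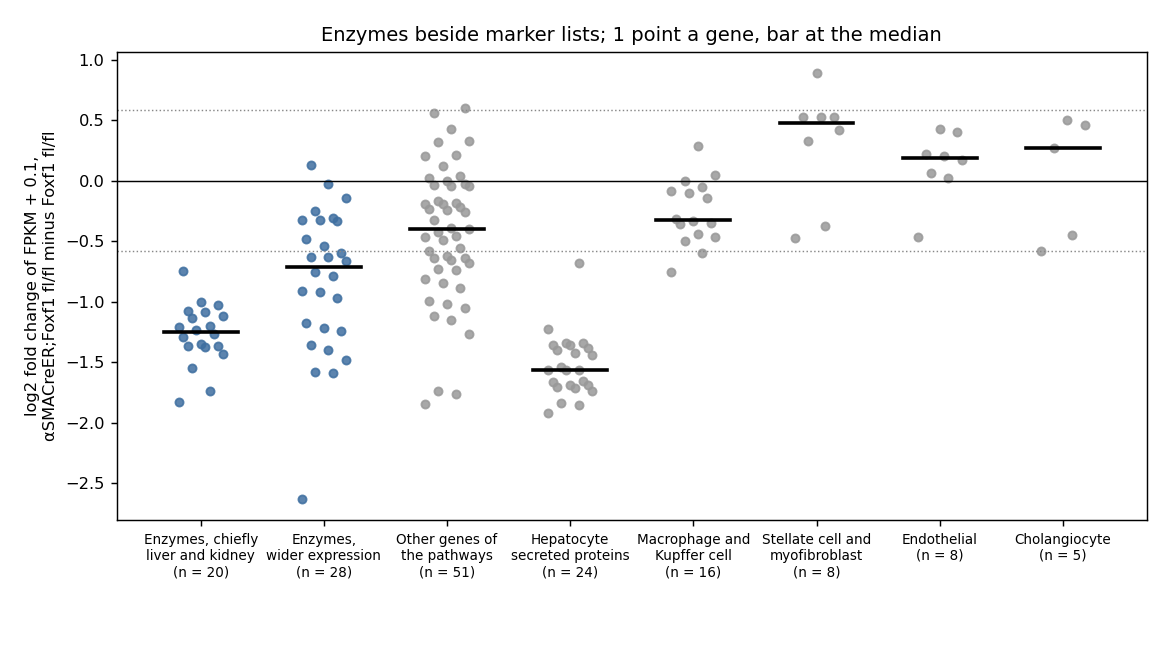
Log2 fold change (αSMACreER;Foxf1 fl/fl over Foxf1 fl/fl) of the enzymes by breadth of expression, beside other genes of the pathways and the marker lists of 5 cell types, with 1 point a gene that passed the filter, a bar at each median and dotted lines at 1.5-fold. The medians are -1.25 for liver and kidney enzymes, -0.71 for wider ones and -1.56 for the secreted proteins, and the point of Cbs at -2.63 lies below all others.

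Isoforms with unlike tissue distribution permit a comparison within 1 reaction. Mat1a, the form of adult hepatocytes, was lower at -1.23, whereas Mat2a, the form of other and of dividing cells, was at 34.0 and 43.3 FPKM, 0.33 [0.21, 0.44]. The difference between their fold changes was -1.56 [-1.74, -1.37], and per length the level of Mat1a relative to Mat2a went from 1.03 to 0.347. With the trend of fold change with transcript length removed, Mat2a stood at 0.29.

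Gpt against Gpt2 differed by -1.16 [-1.49, -0.82], and the ratio of their levels went from 0.801 to 0.355. Shmt1 against Shmt2, the mitochondrial form at 30.4 and 23.4 FPKM, differed by -0.78 [-1.09, -0.47]. For the aspartate aminotransferases no such difference was seen beyond counting error, as Got2 was at 26.2 and 23.4 FPKM and the Got1 to Got2 difference was -0.12 [-0.30, 0.057]. Ido1, which catalyses the same reaction as Tdo2 outside the liver, was at 0.146 and 0.0630 FPKM, too low to compare.

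The fold changes of 3 pairs of paralogs overlapped. Bhmt and Bhmt2 differed by 0.059 [-0.43, 0.55], and Bhmt stood 15.4-fold above Bhmt2 per length in the Foxf1 fl/fl library and 16.5-fold in the other, although reads shared by the paralogs could have been split between them. Prodh and Prodh2 differed by -0.20 [-0.71, 0.31], and Dmgdh and Sardh by -0.21 [-0.62, 0.20]. Each of these intervals spans 0.

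Subunits of 1 complex were compared in the same way. In the glycine cleavage system Gldc differed from Amt by 0.59 [-0.35, 1.53] and from Gcsh by -0.30 [-0.92, 0.33]. It differed from Dld, the dehydrogenase shared with other complexes and level at 28.2 and 28.7 FPKM, by -0.63 [-1.23, -0.027]. Bckdha differed from Bckdhb by 0.096 [-0.49, 0.69] and from Dbt, the core subunit at 2.99 and 2.64 FPKM, by -0.34 [-0.81, 0.13]. Mccc1 differed from Mccc2 by 0.46 [-0.17, 1.08]. Apart from Gldc and Dld, none of the pairs compared here differed beyond counting error, and the intervals were wide. Amt was not set against Gcsh or Dld. The interval of Amt, [-1.96, -0.49], did not overlap that of Dld, [-0.15, 0.15]. Both contrasts with Dld rest on reads placed on the longest transcripts. On the median transcript length the interval of Gldc itself spanned 0.

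**Figure D4:**
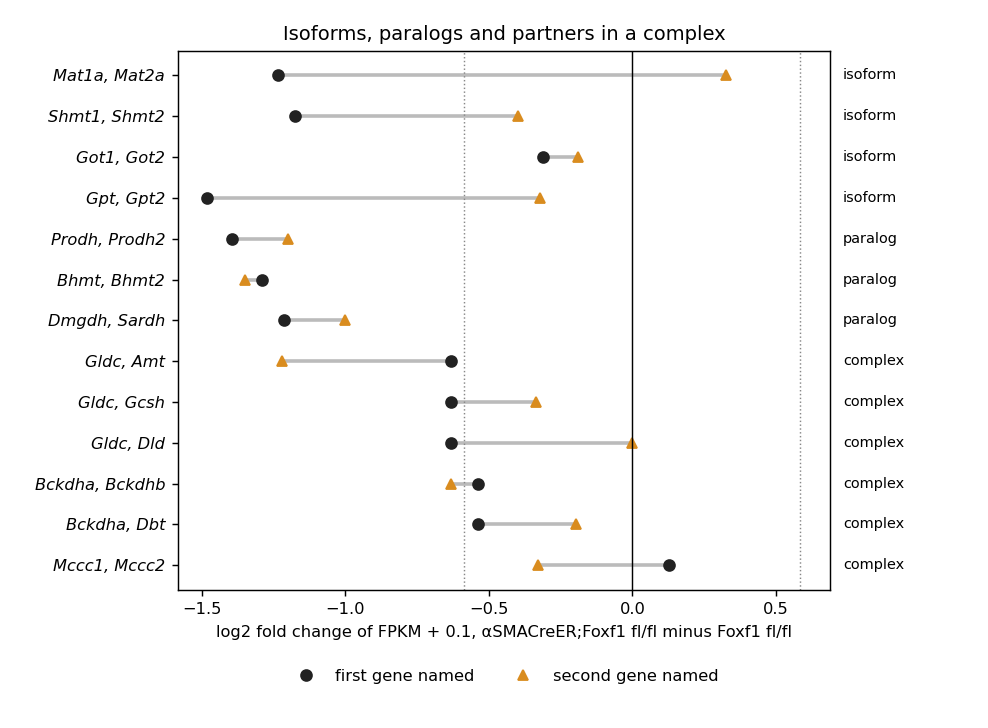
Log2 fold change of each enzyme pair (isoforms, paralogs and subunits of a complex), with a circle for the first gene named, a triangle for the second, a grey line between them and dotted lines at 1.5-fold (1 library per genotype). Mat1a and Mat2a lie at -1.23 and 0.33, and Got1 and Got2 close together at -0.31 and -0.19.

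Further genes of the same pathways, 55 in number, were measured for comparison, and 51 passed the filter. Of these, 19 were lower and 1 was higher, with a median of -0.40 and a range from -1.84 to 0.60. The named ones among those past 1.5-fold with a mean of at least 10 FPKM were all lower. Qdpr, which regenerates tetrahydrobiopterin, was at 63.7 and 36.1 FPKM (-0.84), and Pcbd1, which also serves that cofactor, was at 21.7 and 6.07 FPKM (-1.84). Gstz1, the isomerase between Hgd and Fah, was at 19.1 and 9.51 FPKM (-1.02). With it, every measured step from tyrosine to fumarate was lower.

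In the urea cycle Cps1, the mitochondrial first enzyme, was at 16.5 and 10.1 FPKM (-0.73) and Ass1, which precedes Asl, at 158 and 72.5 FPKM (-1.15). Gcdh of lysine breakdown was at 19.0 and 9.67 FPKM (-0.99), unlike Aass upstream of it. Pcca, a subunit of propionyl-CoA carboxylase, was at 15.1 and 6.31 FPKM (-1.27). The 1 higher gene, Sdsl, a relative of Sds, was named after its values were seen. It stood at 1.35 and 2.13 FPKM, 0.60 [-0.26, 1.46].

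Sequence upstream of the starts was examined because members of 1 pathway can differ in promoter type. RefSeq promoters of build GRCm38.p6, from 250 bases before to 50 after the start, were matched for 40 of the 48 enzymes, and 8 had no entry (Sds, Gpt, Kynu, Cth, Asl, Mat1a, Cdo1 and Gls2). The 250 bases before the start are printed for 4 enzymes, 5′ to 3′ on the strand of the gene with CG pairs in capitals. Hpd and Otc are liver enzymes that were lower, and Got1 and Aass are wider ones that lay within 1.5-fold.
Hpd, chr5:123182724-123182973, minus strand: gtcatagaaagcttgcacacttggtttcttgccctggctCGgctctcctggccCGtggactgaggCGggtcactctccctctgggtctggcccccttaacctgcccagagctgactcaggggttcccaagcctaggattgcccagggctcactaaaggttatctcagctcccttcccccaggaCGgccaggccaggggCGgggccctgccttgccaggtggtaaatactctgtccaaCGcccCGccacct
Otc, chrX:10252055-10252304, plus strand: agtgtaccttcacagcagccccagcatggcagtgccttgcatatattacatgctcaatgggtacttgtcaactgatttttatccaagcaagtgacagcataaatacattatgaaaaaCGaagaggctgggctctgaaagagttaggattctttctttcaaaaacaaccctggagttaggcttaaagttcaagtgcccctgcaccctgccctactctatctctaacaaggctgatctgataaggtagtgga
Got1, chr19:43524606-43524855, minus strand: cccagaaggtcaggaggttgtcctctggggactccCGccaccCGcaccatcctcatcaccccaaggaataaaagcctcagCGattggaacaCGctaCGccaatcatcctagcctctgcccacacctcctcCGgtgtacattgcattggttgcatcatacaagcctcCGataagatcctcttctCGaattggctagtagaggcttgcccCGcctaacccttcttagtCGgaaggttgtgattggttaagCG
Aass, chr6:23132987-23133236, minus strand: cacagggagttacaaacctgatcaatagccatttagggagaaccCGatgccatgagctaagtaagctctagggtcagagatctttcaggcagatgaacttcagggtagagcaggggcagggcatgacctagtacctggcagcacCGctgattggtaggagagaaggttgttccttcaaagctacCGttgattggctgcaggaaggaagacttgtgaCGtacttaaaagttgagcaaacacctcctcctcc
They hold 7, 1, 11 and 4 CG pairs in that order, beside fold changes of -1.83, -1.27, -0.31 and -0.030. These 4 were picked with their fold changes known, so they cannot show whether CG count and fold change are related.

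Over the whole promoter windows the liver and kidney enzymes had fewer CG pairs than the wider ones, with a median of 5 over 18 enzymes against 13.5 over 22. At least 10 CG pairs were held by 6 of the 18 and 16 of the 22, and by 43.9% of all 27025 promoters. Across all 40 enzymes Spearman's rho of CG count with log2 fold change was -0.041, a description across genes of the same pair of libraries. Within the liver and kidney enzymes the median fold change was -1.16 below 10 CG pairs (12 enzymes) and -1.36 from 10 upwards (6 enzymes). Within the wider ones it was -0.20 (6 enzymes) and -0.63 (16 enzymes). Some RefSeq starts lay far from the gene start in GENCODE, by 1173 bases for Haao and 11812 bases for Kmo. Kmo is among the few wider enzymes below 10 CG pairs.

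**Figure D5:**
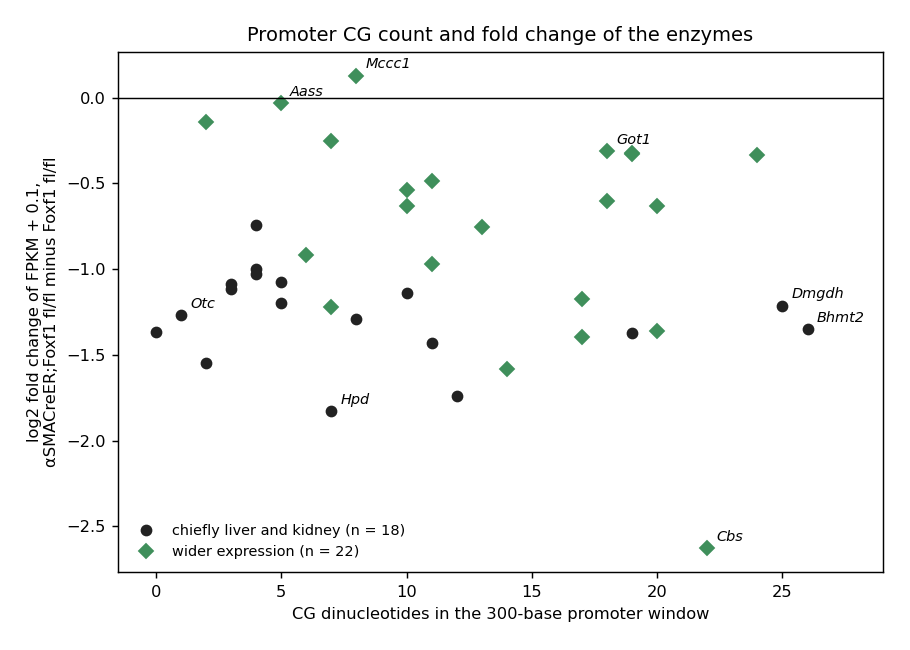
Log2 fold change (αSMACreER;Foxf1 fl/fl over Foxf1 fl/fl) against the number of CG pairs in the RefSeq promoter window for 40 enzymes, coloured by breadth of expression. The liver and kidney enzymes lie mostly at few CG pairs (median 5) and the wider ones at more (median 13.5), and rho of fold change with CG count is -0.041 over both classes together.

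Exact letters of 5 promoter motifs were searched on both strands of the same windows, and none of these motifs contains another. TATAAA was present in 5 of the 40 (12.5%, against 14.2% of all promoters) and GTTAAT, from the site of HNF1, in 3 (7.5% against 7.20%). CAAAGTCCA, the site of HNF4, was present in 1, Agxt2 (2.50% against 0.477%). TTGCNNAA, from the site of C/EBP, was present in 4 (10.0% against 10.8%), and ACANNNTGT, from the site of the glucocorticoid receptor, in 4 (10.0% against 6.90%). These shares lie close to the background or rest on few promoters, and a match is a description and not a site.

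Bhmt2 (ENSMUSG00000042118, mm10 chr13:93655720-93674302) and Dmgdh (ENSMUSG00000042102, mm10 chr13:93674433-93752833) start head to head, and the 130 bases between their starts are printed on the plus strand with CG pairs in capitals because both genes differed alike.
Bhmt2 to Dmgdh, chr13:93674303-93674432: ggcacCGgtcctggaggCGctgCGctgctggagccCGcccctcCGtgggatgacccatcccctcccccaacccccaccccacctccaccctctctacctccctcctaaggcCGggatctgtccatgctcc
The fold changes of these neighbours were -1.35 [-1.83, -0.87] and -1.21 [-1.59, -0.83]. The stretch holds 6 CG pairs, and the promoter windows of both genes overlap across it. Bhmt lies 17758 bases from Bhmt2 on the same chromosome and stood at -1.29 [-1.38, -1.20], and the intervals of these 3 neighbours overlapped. The likeness is not particular to them. All 20 liver and kidney enzymes were lower, with a median of -1.25, and Mat1a and Otc on other chromosomes stood at -1.23 and -1.27. Any part of the shared stretch was not tested.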

How the data were processed

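RNA of adherent liver cells was pooled within each genotype, made into libraries with a TruSeq kit and sequenced by the authors as single-end 75-base reads, about 10 M per library per the labels. The labels name the aligner TopHat and the build mm10. The deposited files hold FPKM per gene from Cufflinks, 1 per genotype, with no counts. The annotation release and any use of strand are not given in the sources used here. Of 38320 entries, 36574 matched GENCODE M21 identifiers, and for a repeated symbol the entry with the highest mean was kept. FPKM was scaled by the median ratio, compared on log2(FPKM + 0.1) and filtered at a mean of 1. Depth was estimated from the steps between low FPKM of 6169 single-transcript genes, taking fragments as 200 bases long, and the counting intervals rest on it. The scripts (Python 3.11.15, numpy 2.4.6, pandas 2.3.3, scipy 1.17.1) were tested on simulated data. With 1 library per genotype no test was run, and the study's 1.5-fold threshold served as the call.

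The members, lists, breadth and compartment classes were chosen with earlier results of these data known. All 48 enzymes are named. Other genes are named as partners in a fixed list of pairs, as the first 3 hepatocyte secreted proteins or the first of each other marker list, or as other pathway genes past 1.5-fold with a mean of at least 10 FPKM. Some genes that this rule names are not reported here. Alternatives were other pseudocounts, scalings, filters and thresholds, and removal of the trend of fold change with transcript length (median of 20 length groups subtracted).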

Additional observations from a re-analysis of the deposited data

How the results depend on the processing

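The number of enzymes at least 1.5-fold lower was 38, and it was 33 with a pseudocount of 1, 38 with 0.01, 37 with the values as deposited or upper-quartile scaling, 31 with an equal FPKM sum, 36 with the length trend removed, 27 of the 33 left under a mean FPKM minimum of 5, and 28 at a 2-fold threshold. None was higher under any of these. The median of the enzymes ran from -0.90 (equal FPKM sum) to -1.14 (mean FPKM of at least 5). The equal FPKM sum moved the median of all genes to 0.21, the ratio of summed enzyme FPKM from 0.496 to 0.571 and the methionine and sulphur median from -1.29 to -1.09. The tyrosine median moved from -1.46 to -1.19 with the length trend removed, and the tryptophan median from -0.63 to -1.03 at a mean FPKM of at least 5, which tests fewer genes. Single enzymes moved beyond their counting interval in 14 cases under the equal FPKM sum and in 11 with the length trend removed, and 45 in place of 47 lay below 0 under the former. Reads estimated on the median transcript length, an alternative chosen after seeing the data, left 38 intervals below 0 in place of 42. No paired analysis was possible because a genotype was represented by 1 library, and none could be left out. Depth limits the enzymes with few reads most, such as Amt, Nags, Amdhd1, Agxt2 and Ddc.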

Other observations

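Some further genes of the same pathways are named here after their values were seen. Arg1, the arginase that closes the urea cycle in hepatocytes and is also made by macrophages, was at 230 FPKM in the Foxf1 fl/fl library and 314 FPKM in the αSMACreER;Foxf1 fl/fl library, with a log2 fold change of 0.42 [0.35, 0.49]. Arg1 thus lay on the other side of 0 from Otc, Ass1 and Asl, which precede it in the cycle. Arg2, the mitochondrial arginase of other tissues, was nearly level at 81.6 and 80.6 FPKM. Glud1, glutamate dehydrogenase, was at 107 and 111 FPKM, and Glul, glutamine synthetase, at 204 and 203 FPKM, so both enzymes that handle ammonia through glutamate were level while Gls2 was lower.

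Hal, which starts histidine breakdown, was at 6.25 and 1.83 FPKM, -1.74, and with it all 4 steps measured from histidine to the folate pool were lower. Bcat1, the cytosolic branched-chain aminotransferase found mainly outside the liver, was at 3.42 and 0.955 FPKM, -1.76, below every branched-chain enzyme of the 48. Tdh, threonine dehydrogenase, was at 0.478 FPKM in the Foxf1 fl/fl library and was listed at 0 in the other. It did not pass the filter and was too low to compare.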
